A study of Mus musculus with 51 samples.

Results

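Fem1c was followed through 2 probes of a spotted 2-colour array, chosen by gene symbol: every pair of spots that the platform annotation names Fem1c. They are 2 of 7920 features measured. Each was printed as a pair of spots 22 positions apart. One pair lay in print block 45 and the other in block 8, and the probes are called by these blocks. Both were listed under the same sequence accession, so on paper they report the same transcript from different places on the glass. Both had come up for their strongly negative ratios at 2 pmol in earlier results of these data. Their differences from 0 pmol are therefore a description, and where the limma calls of these differences are counted, nothing is read from the count. The results rest on how the probes differed from each other and on how they followed the amount.

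The samples were 51 arrays of RNA from CRL1606, a mouse B-cell hybridoma line made by fusing spleen cells with a myeloma, which makes an antibody to human fibronectin and was kept in serum-free suspension culture. Each array carried hybridoma RNA in both colours, with 100 genes added to 1 channel and a different 100 to the other at equal amounts. The amounts 0.025, 0.15, 0.2, 1 and 2 pmol per gene had 3 arrays, and 0.05, 0.1, 0.25, 0.5 and 0.75 pmol had 6, as did the 0 pmol arrays, which carried no added genes. All RNA came from 1 line. The labels do not tie replicates to separate cultures, so the p-values here speak only of how much arrays varied, which could be technical.

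FEM1C is a substrate receptor of the cullin-2 RING ubiquitin ligases. In human cells, FEM1 proteins bind short signals at the carboxyl end of target proteins, and the cullin scaffold with its RING subunit then brings in the ubiquitin-conjugating enzyme, which marks the target for the proteasome. FEM1A is its close relative, and both recognise targets that end in arginine. Because the hybridoma RNA is common to both channels, a ratio here says nothing of how much Fem1c, or any marker of a B cell, the line itself makes. It shows only the imbalance between the channels. Neither the channel in the numerator nor the names of the spiked genes could be taken from the labels, so ratios are called only negative or positive.

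The values are log2 ratios centred on each array's median. At 0 pmol, the block 45 probe read -0.14, -0.33, -0.21, -0.61, -0.01 and -0.19 in replicates 1 to 6. In the same arrays the block 8 probe read 0.01, -0.43, -0.16, 0.25, -0.01 and 0.15. So the block 45 probe was slightly negative on 6 of 6 unspiked arrays and the block 8 probe on 3 of 6. Within an unspiked array, between 22.5% and 49.1% of the features lay below the block 45 probe, and between 18.8% and 64.9% below the block 8 probe, so neither stood out.

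At the lowest spike, 0.025 pmol, the block 45 probe read -4.78, -5.94 and -4.76, and the block 8 probe read -3.86, -5.07 and -3.23. No array at 0.025 pmol overlapped with any at 0 pmol. This is a description, since the unspiked arrays had a part in choosing the probes. The share of all features that separate in this way is not given here. At 0.05 pmol, the block 45 probe read -6.46, -6.77, -6.22, -4.10, -3.06 and -5.74 in replicates 1 to 6. In these arrays the block 8 probe read -5.47, -5.26, -5.39, -4.91, -2.97 and -2.27. Replicates 1 to 3 were close together for each probe, while replicates 4 to 6 were spread over more than 2 log2 units.

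At 0.1 pmol, the block 45 probe lay between -7.14 and -4.44 with a median of -6.12, and the block 8 probe between -5.83 and -4.42 with a median of -5.18. At 0.15 pmol, the block 45 probe read -5.35, -4.17 and -4.67, against -5.01, -4.55 and -4.10 for the block 8 probe. At 0.2 pmol, the block 45 probe read -5.15, -4.99 and -5.12, the tightest group of all, and the block 8 probe read -4.36, -3.37 and -4.56. The ranges of the probes overlapped at 0.1 and 0.15 pmol and did not at 0.2 pmol.

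The 0.25 pmol arrays held the value that stands farthest from its group. The block 45 probe lay between -7.22 and -4.77 with a median of -6.02. The block 8 probe read 1.32 in replicate 1 and between -6.44 and -4.47 in the other 5 arrays. In that array the deposited log2 ratio of its first spot was exactly 0, and its paired spot was missing. Of the 6 spots that border the pair, 4 were missing too, and the second spot of the feature below, Akap13, also read exactly 0. The array held 298 such zeros among 16271 measured spots (1.83%), 7 of them in block 8, and on the other 50 arrays the number of Fem1c spots at exactly 0 was 0. In the same array the block 45 probe read -6.61. Whether the value of 0 is a measurement of Fem1c was not tested. With it, the block 8 probe averaged -4.25 ± 2.82 at 0.25 pmol (SD, n = 6), and without it -5.36 ± 0.80 (SD, n = 5).

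At 0.5 pmol, the block 45 probe lay between -7.67 and -4.48 with a median of -6.16, and the block 8 probe between -7.13 and -4.59 with a median of -6.33. At 0.75 pmol, both probes were near -6 on 5 arrays and much weaker in replicate 4, which gave -1.53 for the block 45 probe and -1.36 for the block 8 probe. That is the array whose paired spots agreed least of all 51, with a correlation of 0.198 across features. Without it, the 0.75 pmol means were -5.93 ± 0.17 for the block 45 probe and -6.09 ± 0.18 for the block 8 probe (SD, n = 5), against -5.20 ± 1.80 and -5.30 ± 1.94 with it (SD, n = 6).

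At 1 pmol, where between 13.5% and 50.4% of spots were missing per array, the block 45 probe was measured in replicates 1 and 3, at -8.15 and -6.52. Only replicate 1 measured the block 8 probe, at -8.28. At 2 pmol, the block 45 probe read -7.60, -7.80 and -7.08, and the block 8 probe read -6.74, -6.83 and -7.22. These means, -7.49 ± 0.37 and -6.93 ± 0.26 (SD, n = 3 each), correspond to ratios about 180-fold and 122-fold below the array median.

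**Figure D1:**
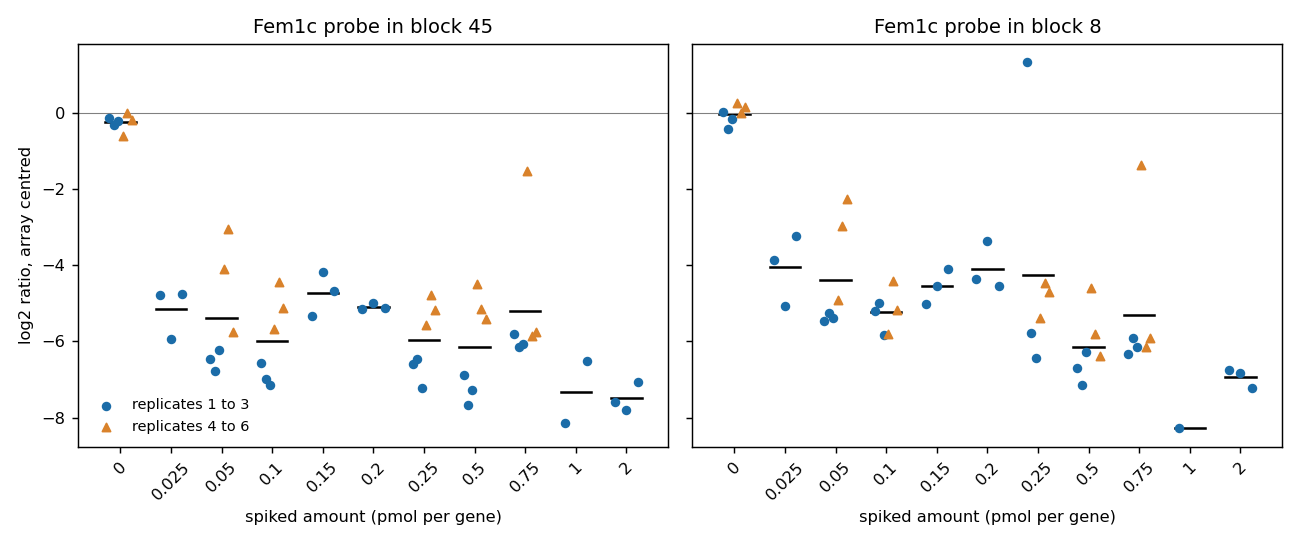
Centred log2 ratio of each Fem1c probe (vertical axis) by spiked amount in pmol per gene (horizontal axis, low to high), 1 point per array. Circles are replicates 1 to 3, triangles replicates 4 to 6, and bars the means. All spiked arrays lie below all unspiked ones except the block 8 probe at 0.25 pmol replicate 1 (1.32), and replicate 4 at 0.75 pmol lies far above its group for both probes.

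In the fit of all arrays, the block 45 probe differed from 0 pmol by -4.91 ± 0.75 (SE) at 0.025 pmol and by -7.24 ± 0.75 (SE) at 2 pmol. The block 8 probe differed by -4.02 ± 0.94 (SE) and by -6.90 ± 0.94 (SE) at the same amounts. As a count only, the limma call (adjusted p under 0.05, negative) included the block 45 probe at 10 of 10 amounts and the block 8 probe at 9 of 9. The share of all features called negative in the same comparisons was 3.31% at 0.025 pmol, 1.91% at 0.05, 2.17% at 0.1, 3.89% at 0.15 and 2.88% at 0.2. It was 4.04% at 0.25 pmol, 11% at 0.5, 2.56% at 0.75, 26.6% at 1 and 5.33% at 2. With array set as a covariate the call included the block 45 probe at 10 of 10 amounts and the block 8 probe at 4 of 9. In that fit between 31 and 717 features were called negative per amount, against 151 to 1606 without sets. With arrays scaled to one spread the counts were 9 of 10 and 8 of 9, where 50 to 1185 features were called negative. The probes were picked on 2 pmol against 0 pmol, and all 10 comparisons share the 6 unspiked arrays, so these calls restate that choice.

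Among the features of an array, the Fem1c probes sat at the negative end. The block 45 probe was among the 10 lowest ratios on 32 of the 44 spiked arrays that measured it, with a median rank of 5 from the bottom, and was the lowest of all on 6. The block 8 probe was among the 10 lowest on 21 of 43, with a median rank of 11, and the lowest on 4. At 0.75 pmol replicate 4, where both ratios were small, the ranks were still 205 and 268 of 7913. The negative sign held on 44 of 44 spiked arrays for the block 45 probe and on 42 of 43 for the block 8 probe, the exception being the deposited 0 described above. These rank and sign counts include the 3 arrays at 2 pmol that chose the probes. There the ranks were 1 to 3 for the block 45 probe and 1 to 10 for the block 8 probe. The counts are therefore a description, and the share of all features with so steady a sign is not given.

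**Figure D2:**
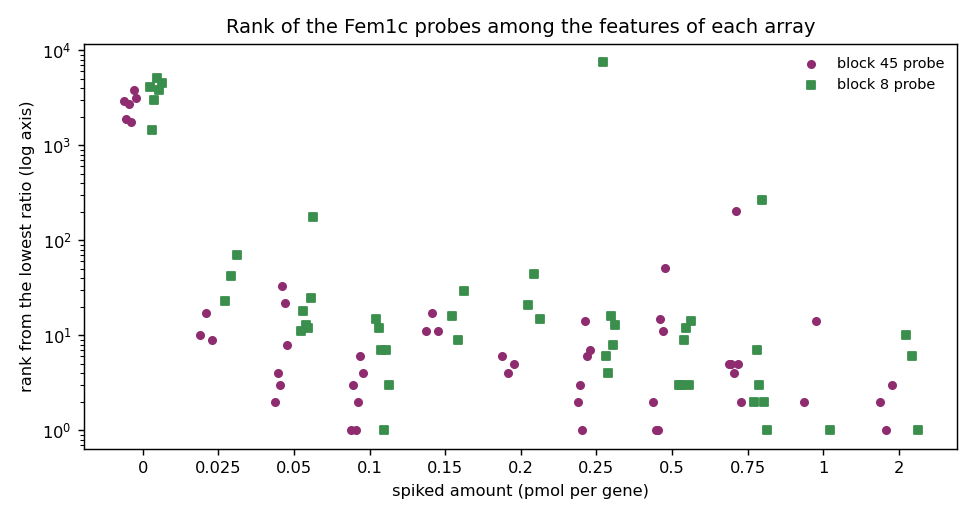
Rank of each Fem1c probe from the lowest ratio among the features measured on the array (vertical log axis) by spiked amount in pmol per gene, 1 point per array and probe. On unspiked arrays the ranks lie between 1464.5 and 5096.5. On spiked arrays most lie under 50, with median ranks of 5 for the block 45 probe and 11 for the block 8 probe.

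The order of the levels followed the amount only loosely. For the block 45 probe, the means from the most negative were those of 2, 1, 0.5, 0.1, 0.25, 0.05, 0.75, 0.025, 0.2, 0.15 and 0 pmol. For the block 8 probe they were those of 1, 2, 0.5, 0.75, 0.1, 0.15, 0.05, 0.25, 0.2, 0.025 and 0 pmol. In both orders the array ranges of neighbouring spiked amounts overlapped, apart from the single array of the block 8 probe at 1 pmol. The step from the weakest spiked mean to 0 pmol was a gap with no overlap. The means were apart by 4.48 log2 units for the block 45 probe and 4.02 for the block 8 probe. As the 0 pmol arrays helped to choose the probes, this gap is a description. Between 0.025 and 2 pmol, an 80-fold range of 6.32 log2 units, the 2 pmol mean differed from the 0.025 pmol mean by -2.33 for the block 45 probe and -2.88 for the block 8 probe. The 2 pmol arrays also helped to choose the probes. Their place in both orders and these differences are therefore a description as well.

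The slope on the amount was tested over the 42 arrays of 0.025 to 1 pmol, which leaves out the arrays that chose the probes. The block 45 probe moved by -0.14 ± 0.12 (SE) per doubling over 41 measured arrays, with a limma adjusted p of 0.425. Leaving out single arrays gave slopes between -0.23 and -0.08, and array set as a covariate gave -0.40 (limma adjusted p 0.19). For the block 8 probe the slope without sets was -0.35 ± 0.15 (SE) per doubling over 40 arrays, with a limma adjusted p of 0.096. In the fit without sets neither of the 2 probes was called, where 18.8% of all features were and 8.96% with a negative slope. For the block 8 probe the call turned on a pair of arrays. Without 0.25 pmol replicate 1 the slope was -0.38 (limma adjusted p 0.0206), and without 0.75 pmol replicate 4 it was -0.45 (limma adjusted p 0.0222).

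The probes were then set against each other on the same array, as the block 45 probe minus the block 8 probe. At 0 pmol the mean difference was -0.22 ± 0.35 (SD, n = 6), and the block 45 probe was the lower on 4 of 6 arrays. Without replicate 4 (-0.86) this mean was -0.09. The 3 arrays at 0.025 pmol averaged -1.10 ± 0.37 and the 6 at 0.05 pmol -1.01 ± 1.45, or -0.52 without replicate 6. The 6 arrays at 0.1 pmol averaged -0.75 ± 0.91, the 3 at 0.15 pmol -0.17 ± 0.50 and the 3 at 0.2 pmol -0.99 ± 0.56. On all 3 arrays at 0.025 pmol and at 0.2 pmol the block 45 probe was the lower. At 0.25 pmol the difference was -1.72 ± 3.05 (n = 6), or -0.48 without replicate 1, with the block 45 probe lower on 6 of 6 arrays. At 0.5 and 0.75 pmol the probes were level, with -0.0037 ± 0.73 and 0.10 ± 0.28 (n = 6 each). The 1 array at 1 pmol with both gave 0.13, and the 3 arrays at 2 pmol gave -0.56 ± 0.61, with single arrays left out between -0.91 and -0.36.

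Tested amount by amount with exact sign-flip permutations (two-sided), none of the 10 differences passed after Benjamini-Hochberg adjustment. The lowest p was 0.0312 at 0.25 pmol, the smallest that 6 arrays allow (adjusted 0.312), and 3 arrays cannot go below 0.25. Over all 40 arrays of 0.025 to 1 pmol with both probes, a test added after seeing the data, the block 45 probe was lower on 28, by a mean of -0.67 and a median of -0.40 (sign-flip permutation p = 0.00024). Without 0.25 pmol replicate 1 the mean was -0.49 (sign-flip permutation p = 0.00053). The permutations treat arrays as independent, and the gap differed between the array sets described next.

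The gap between the probes also ran along groups of arrays. Arrays were sorted into 8 sets by how alike their other features were, a clustering made from the data since the labels give no batch. In set B, which holds the 0.025 pmol arrays and replicates from 0.05 and 0.1 pmol, the block 45 probe was lower on 8 of 8 arrays, by a mean of -1.16. In set D it was lower on 6 of 6, by -0.87. In set A it was lower on 2 of 6 spiked arrays, with a mean of 0.088, and in set E on 3 of 7, with 0.069. The difference between sets was not tested.

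Of the 5 amounts with 6 arrays, the differences of replicates 1 to 3 and 4 to 6 did not overlap at 3 and overlapped at 2. The share of other pairs of features that part in this way is not given, so nothing is read from this count. At 0.1 pmol, replicates 1 to 3 gave differences of -1.36, -1.99 and -1.31, and replicates 4 to 6 gave 0.13, -0.01 and 0.04. At 0.5 pmol, replicates 1 to 3 averaged -0.58 with -0.19 as the smallest gap, and replicates 4 to 6 gave 0.11, 0.65 and 0.95. At 0.25 pmol, replicates 1 to 3 lay between -7.93 and -0.68 and replicates 4 to 6 between -0.47 and -0.17. At 0.05 pmol the groups overlapped, with means of -1.11 and -0.92, and at 0.75 pmol they were level, with 0.12 and 0.08. At 0.1 pmol the block 8 probe hardly moved between them, with means of -5.34 and -5.13, while the block 45 probe averaged -6.89 in replicates 1 to 3 and -5.08 in replicates 4 to 6. Agreement of paired spots across all features ran from 0.938 to 0.955 in the first 3 of these arrays and from 0.402 to 0.52 in the last 3. At 0.5 pmol it was 0.815 to 0.957 and 0.943 to 0.976. The part of spot agreement in the gap was not tested.

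Replicates 4 to 6 at 0.1 pmol and 1 to 3 at 0.75 pmol fell in set A, which also holds all 6 unspiked arrays. The block 45 probe averaged -5.08 in these 0.1 pmol arrays and -6.01 in these 0.75 pmol arrays, and the block 8 probe -5.13 and -6.13. Within this set, too, no spiked array of either probe overlapped with an unspiked one. Here as well this only describes the chosen probes, with no share of all features beside it.

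**Figure D3:**
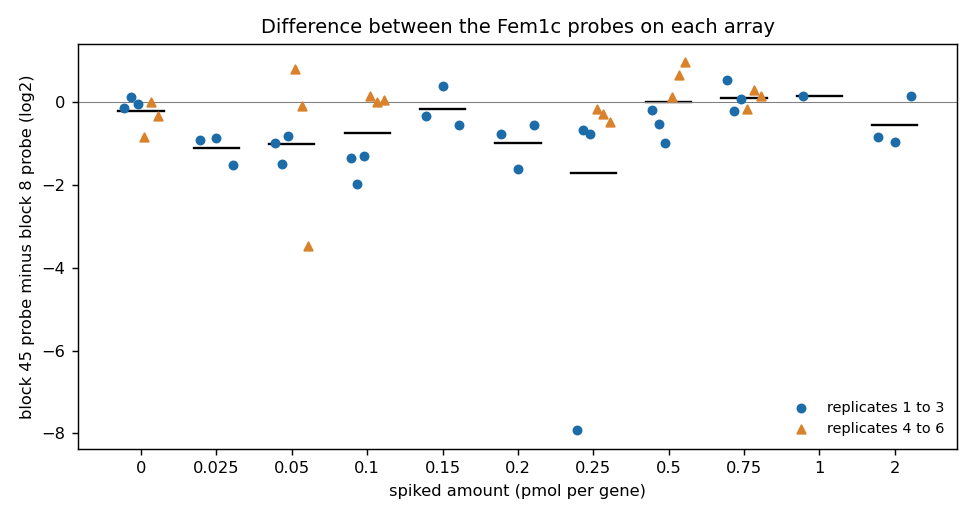
The block 45 probe minus the block 8 probe in log2 units (vertical axis) on each array by spiked amount in pmol per gene. Circles are replicates 1 to 3, triangles replicates 4 to 6, and bars the means. At 0.1 and 0.5 pmol the circles lie below the triangles with no overlap, and 0.25 pmol replicate 1 lies at -7.93.

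Whether the gap closes with the amount depended on the measure. Over the 40 arrays the difference rose by 0.23 per doubling (95% interval -0.07 to 0.52). By Pearson's r, 0.247, the relation did not pass (permutation p = 0.125, adjusted 0.219 over 7 relations). By Spearman's rho, 0.487, it did (permutation p = 0.00181, adjusted 0.00633). Without the 3 arrays at 0.025 pmol, the farthest amount, r was 0.24. Without 0.25 pmol replicate 1 the slope was 0.26 and r passed (permutation p = 0.00126). With array set as a term the slope was 0.26, and neither r (permutation p = 0.158) nor rho (permutation p = 0.12) passed.

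Across arrays the probes moved together in part. Over the 40 arrays of 0.025 to 1 pmol, Pearson's r between them was 0.54 (permutation p = 0.00068, adjusted 0.00476) and Spearman's rho 0.683 (permutation p = 1e-05, the smallest the permutations can give, adjusted 7e-05). Without the 2 arrays farthest from the median, 0.25 pmol replicate 1 and 0.75 pmol replicate 4, r was 0.72. Both probes share the array and its labelling. Within the 5 amounts of 6 arrays, r ran from -0.09 at 0.25 pmol to 0.991 at 0.75 pmol and none passed after adjustment. The value at 0.75 pmol rests on replicate 4, since r was 0.07 without the 2 farthest arrays.

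**Figure D4:**
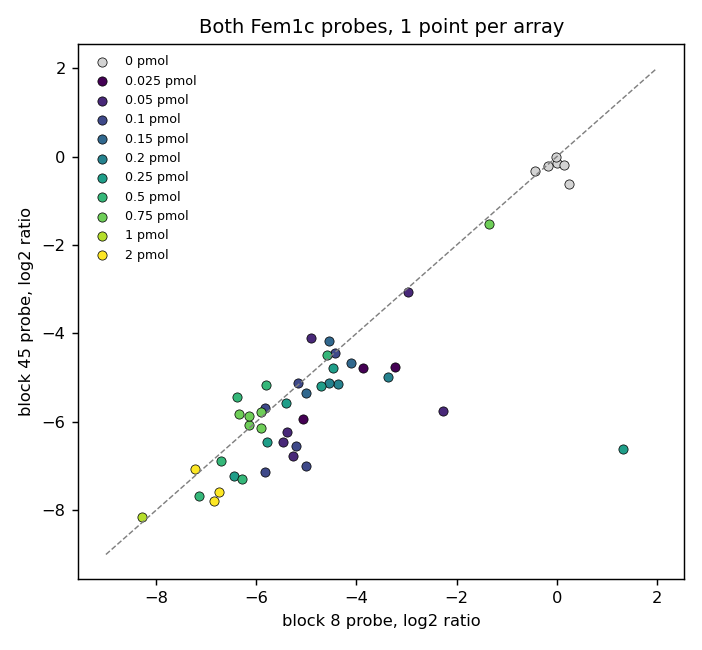
Centred log2 ratio of the block 45 probe (vertical axis) against the block 8 probe (horizontal axis), 1 point per array, coloured by amount, with the line of equal ratios dashed. Unspiked arrays sit near the origin, most spiked ones along or below the line (30 of 43 below), and the point at the far right is 0.25 pmol replicate 1.

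Paired spots within a probe lay close together. The median gap between the spots of a pair was 0.17 log2 units for the block 45 probe over 49 arrays and 0.14 for the block 8 probe over 47, beside 0.15 for the typical feature. The largest gaps were 1.36 for the block 45 probe at 0.2 pmol replicate 1 and 1.06 for the block 8 probe at 0.05 pmol replicate 4. At 0.05 pmol replicate 6, where the probes differed by -3.48, the spots of the block 45 probe read -5.57 and -5.91 and those of the block 8 probe -2.35 and -2.19. That gap therefore lay between the probes and not within a pair, and its cause was not tested.

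How alike the Fem1c probes were to each other, beside other features, turned on 0.25 pmol replicate 1. Likeness was Pearson's r over features measured on at least 40 of these arrays, and is given as a description. Over the 45 spiked arrays, the closest to the block 45 probe were Topbp1, a replication checkpoint scaffold (r = 0.809), Slc7a1, a transporter of cationic amino acids (0.797), Trp53bp1, an adaptor of DNA break repair (0.794), and Papola, a poly(A) polymerase (0.78). All 4 had strongly negative mean ratios on spiked arrays, from -4.56 for Topbp1 to -3.37 for Trp53bp1. With all arrays, the block 8 probe ranked 59th on this list (r = 0.586), and without 0.25 pmol replicate 1 it ranked 2nd (r = 0.809). For the block 8 probe the closest with all arrays were Rabggta, a subunit of the enzyme that lipidates Rab proteins (0.777), Jarid2, a partner of the Polycomb complex (0.774), Vangl1, a planar polarity protein (0.769), and a feature without a symbol at spot 54 (0.757). Their means on spiked arrays were modest, from -1.62 for spot 54 to -0.13 for Jarid2, and the block 45 probe ranked 35th here. Without that array these 4 ranked 19th to 77th. The closest were then Spag5, a protein of the mitotic spindle (0.872), Sox11, a transcription factor (0.872), Topbp1 (0.864) and Prkaca, a catalytic subunit of protein kinase A (0.85), and the block 45 probe ranked 5th. These had mean ratios between -5.31 for Sox11 and -3.90 for Spag5, and were named after that array was seen to matter. All the values share the arrays.

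The features printed beside each probe did not carry a ratio of the same size. Right of the block 45 probe, Nlgn1, a synaptic adhesion protein, averaged 0.21 on spiked arrays, and left of it Scaf8, an RNA polymerase II binding protein, averaged 1.64. Above it was Alcam, an adhesion molecule (0.38), and below it Vopp1 (-1.74, r = 0.643 with the probe). Beside the block 8 probe were Tpmt, thiopurine methyltransferase (-0.32), Sos1, an activator of Ras (-0.27), and Akap13, an anchor for protein kinase A (-1.37, r = 0.559 with the probe). Akap13 was at the same deposited 0 on 0.25 pmol replicate 1, and without that array its r was 0.357. Both features directly below were thus negative on average, though far less than Fem1c. They were also negative at 0 pmol, at -1.04 for Vopp1 and -0.67 for Akap13.

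Other genes of the cullin-RING ligases were followed from a list of 46 symbols, of which 11, on 14 probes, were measured. Fem1a, the relative of Fem1c, lay closer to 0. It averaged -0.54 ± 0.37 at 2 pmol (SD, n = 3) and -0.06 ± 0.29 at 0 pmol (SD, n = 6), and passed the limma test only at 0.025 pmol, with -1.69 ± 1.21 (SD, n = 3; difference -1.63, limma adjusted p 0.00508). With the arrays scaled to one spread it did not pass there (limma adjusted p 0.0628), nor without 0.025 pmol replicate 2 (-0.97, limma adjusted p 0.203). At 2 pmol Fem1a differed from 0 pmol by -0.48 (limma adjusted p 0.432), beside -7.24 and -6.90 for the Fem1c probes.

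Rbx1, the RING subunit that these ligases have in common, was lower than at 0 pmol at most amounts. Its log2 ratio was -1.99 ± 0.38 at 2 pmol (SD, n = 3) and 0.37 ± 0.15 at 0 pmol (SD, n = 6), a difference of -2.36 ± 0.26 (SE, limma adjusted p 1.08e-09). It passed at 8 of 10 amounts, all but 0.025 and 0.05 pmol. Without centring the difference turned positive at 0.025, 0.05 and 0.5 pmol (0.55, 0.02 and 0.50) and passed only at 1 pmol. Its call at 0.2 pmol was lost without single arrays in 34 of 51 fits. The cullin scaffold Cul4a moved the other way at 1 of its 2 probes, at 2.07 ± 0.15 at 2 pmol (SD, n = 3) and 0.12 ± 0.20 at 0 pmol (SD, n = 6), a difference of 1.95 ± 0.25 (SE, limma adjusted p 2.42e-08). Its other probe differed by 0.49 there and did not pass (limma adjusted p 0.249). That probe passed only at 0.5 pmol (0.84, limma adjusted p 0.00514).

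Cul1, the scaffold of another cullin ligase, passed at 5 amounts, with a difference of 1.48 at 0.5 pmol (limma adjusted p 0.00241). Its mean was 0.02 at 0.5 pmol and -1.46 at 0 pmol, where the arrays spread widely (SD 1.37, n = 6), the lowest at -4.11. Without that array, 0 pmol replicate 3, the difference was 0.95 (limma adjusted p 0.0118) and Cul1 passed at 2 amounts. Arih1, a ligase that works with cullins, had 3 probes that did not move alike. The one with the smallest adjusted p passed at 1 pmol alone (-1.15, limma adjusted p 0.00362) and not without replicate 1 there (-0.72, limma adjusted p 0.0934). Another passed at 0.15, 0.2 and 0.5 pmol in the positive direction (0.92 at 0.5 pmol, limma adjusted p 0.00966), and the third passed at 0 amounts. Of the 14 probes, 1 passed at 0.025 pmol, where 4.98% of all features did, and 1 at 0.05 pmol, beside 4.15%. At 0.1, 0.15 and 0.2 pmol 2 passed each, beside 6.26%, 10.7% and 8.91% of all features. At 0.25 pmol 3 passed, beside 13%, at 0.5 pmol 5, beside 25.1%, and at 0.75 pmol 1, beside 7.49%. At 1 pmol 5 of the 9 testable probes passed, beside 42.5%, and at 2 pmol 4 of 14, beside 15.6%. Those 4 were Rbx1 and Cops3, a subunit of the COP9 signalosome that strips NEDD8 from cullins, in the negative direction, and Cul4a and Cul1 in the positive one, Cops3 being named after its value was seen and not passing without 2 pmol replicate 3 (limma adjusted p 0.304). The median difference of the 14 at 2 pmol was -0.0022, beside 0.043 for all features.

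**Figure D5:**
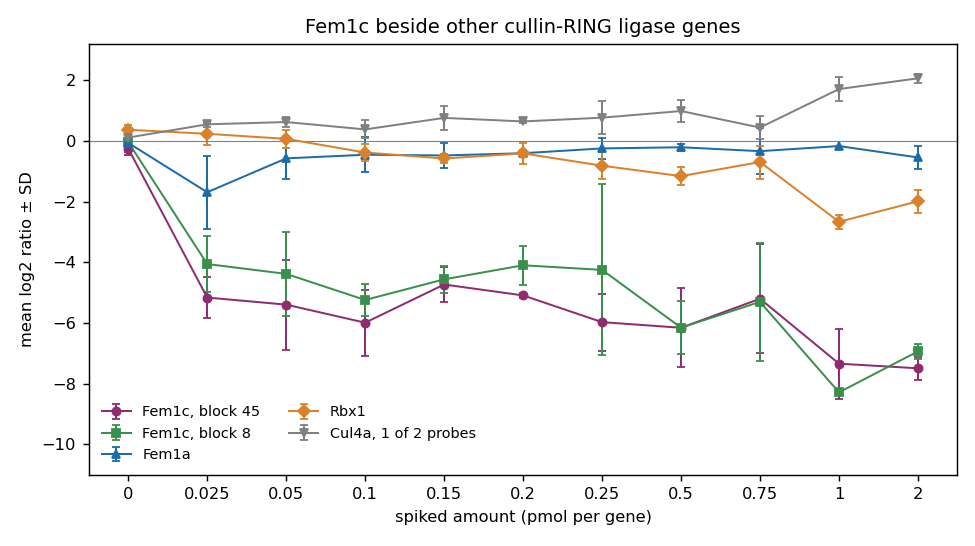
Mean log2 ratio with SD (vertical axis) by spiked amount in pmol per gene for both Fem1c probes, Fem1a, Rbx1 and a probe of Cul4a. Only 1 array measured Fem1a and the block 8 probe at 1 pmol, so no SD is drawn there. Both Fem1c lines lie below -4 at all spiked amounts, while the Fem1a means lie between -1.69 and -0.17.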

How the data were processed

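Per the labels, each array was hybridised in 2 colours. The authors deposited log2 ratios for the spots of each array, with the log base read here from the values. The labels refer to protocols for scanning and normalisation that were not used here. Before centring, array medians lay between -3.33 and 0.951. Between 8376 and 16869 of 16896 spots were measured per array, and the number of arrays limits the precision. The upper limit of 16.61 (1074 values) was treated as missing. Each array was centred on the median of its non-control spots. Paired spots were averaged, and 528 control probes at 11 block positions were left out, leaving 7920 features. No 2 arrays held identical values.

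Features were fitted with limma 3.58.1 in R 4.3.3 (data.table, version 1.17.8), calling features at a Benjamini-Hochberg adjusted p under 0.05 with at least 2 measured arrays per group, or 10 for a slope. The fit was tested on simulated data. Probes were compared with exact sign-flip permutations (100000 draws over all spiked arrays), and correlations with 100000 permutations, or all orders under 10 arrays, in Python 3.11.15 (scipy 1.17.1, matplotlib 3.10.9). Array sets came from a Ward clustering into 8 sets over 3190 features measured on every array, without the 200 highest and 200 lowest at 2 pmol.

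The members, the list and the tests were chosen with earlier results of these data known. Named were both Fem1c probes, up to 6 list probes with the smallest adjusted p, the 4 features most like each Fem1c probe, and those printed beside it. Symbols were updated through Entrez identifiers with RefSeq, assembly GRCm38.p6. Replicate numbers are shared across amounts, but arrays with the same number did not deviate together (median correlation of their deviations 0.005), so no pairing was used. The alternatives were no centring, arrays scaled to one spread, single spots, the upper limit kept, single arrays left out, replicates 1 to 3, a replicate block and array set as a covariate.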

Additional observations from a re-analysis of the deposited data

Results flagged for a closer look

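Of 18 groups of 6 arrays looked at, 4 held an array whose gap to the nearest other array took most of the group's range, and chance alone gives about 1 such group in 20. The block 8 probe read 1.32 at 0.25 pmol replicate 1, with the nearest array at -4.47. The difference between the probes on that array was -7.93, with the nearest at -0.78. At 0.75 pmol replicate 4, the block 45 probe read -1.53 and the block 8 probe read -1.36, with the nearest arrays at -5.77 and -5.91. The 4 groups are not independent. The difference of -7.93 contains the value of 1.32, and both groups at 0.75 pmol were flagged for the same array. Their number can therefore not be weighed against 1 in 20.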

How the results depend on the processing

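The difference of each probe from 0 pmol stayed negative under every alternative run. With array set as a covariate its median over the amounts was -3.25 for the block 45 probe, against -5.43 in the fit without sets. Calls of these differences are not read here, since they share the contrast that chose the probes. With the replicate block, whose numbers do not pair the arrays, the slopes were -0.17 for the block 45 probe and -0.38 for the block 8 probe. Of all arrays, 16 of 51 correlated best with one of their own number. The count to expect by chance was not computed, so nothing is read from it. Without centring, the median of all features shifted by -0.02 to 2.05.

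With array set as a covariate the slopes were -0.40 for the block 45 probe (limma adjusted p 0.19) and -0.65 for the block 8 probe (limma adjusted p 0.128). In that fit 60 of 7920 features passed for the slope, against 1491 of 7920 without sets, so the adjusted p-values of the fits are not directly comparable. Without single arrays the slope of the block 45 probe ran from -0.23 to -0.08. Over all 45 spiked arrays the slope of the block 8 probe was -0.41. That fit includes the 2 pmol arrays that chose the probes, so its call is not read. The slope of the block 8 probe passed with the second spot alone (-0.41), and ran from -0.45 to -0.28 without single arrays. That of the difference passed with the second spot alone (0.28) and without both 0.25 pmol replicate 1 and 0.75 pmol replicate 4 (0.27), and ran from 0.18 to 0.27 without single arrays. The difference between the probes at 0.5 pmol turned to 0.10 with scaled arrays, 0.02 with the first spot alone and 0.57 within set E, and ran from -0.19 to 0.20 without single arrays. At 0.15 pmol it ran from -0.45 to 0.028, and at 0.1 pmol it was 0.055 within set A. The mean difference over 0.025 to 1 pmol was 0.088 in set A, -0.47 in C, 0.069 in E, -2.93 in F, -0.77 in G and -0.019 in H. Sets A and E did not pass, and C, F, G and H hold 2 to 5 arrays with both probes, too few for an exact sign-flip p under 0.0625. In F and G the difference was negative on 3 of 3 arrays each. The correlation of the probes was 0.489 in set D and 0.654 in set E, and did not pass there. In the list of 14 probes, calls without centring numbered 13 at 0.5 pmol against 5, 1 at 0.25 pmol against 3, 1 at 1 pmol against 5, and 0 at 0.025, 0.05, 0.1, 0.15, 0.2 and 0.75 pmol against 1 or 2. With scaled arrays they numbered 0 at 0.025 and 0.05 pmol against 1, 4 at 0.15 pmol against 2, and 3 at 1 pmol against 5. The cause of these changes was not tested.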
